A study of Mus musculus with 6 samples.

Results

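The genes of fatty acid synthesis and of its transcription factor SREBP-1 were followed in mouse kidney. The members were chosen by gene symbol from a list of 10 (Srebf1, Mlxipl, Acly, Me1, Acaca, Acacb, Fasn, Elovl6, Scd1 and Scd2), and all 10 had a row among the 17684 genes of the table. All 10 also passed the filter on low counts (at least 10 counts in at least 3 libraries), which left 13679 genes to test.

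The study asked how long atorvastatin treatment alters the kidney of diabetic mice, and RNA was sequenced from 6 whole kidneys. The Db group held 3 libraries of 50-week-old db/db mice of the strain C57 BLKS/L (so spelled in the labels, C57BLKS/J in the study's methods) that received saline. The Db+Ato10 group held 3 libraries of db/db mice of the same strain and age that received atorvastatin at 10 mg per kg per day for 40 weeks. Library totals ran from 11381678 to 14667909 counts, so that 3 counts, the limit that a count of 0 allows, correspond to 0.198 to 0.26 CPM (counts per 1000000 counts of a library), and such limits cover counting error only. All 6 animals lacked a working leptin receptor, the mutation that makes db/db mice obese and diabetic, and no lean mouse was measured in these libraries. The kidneys were taken at the end of the treatment, so that both groups could hold surviving animals alone. The study reported deaths in both groups and a higher mortality of db/db mice under statins. The study's methods describe male mice and 3 samples per group, and the p-values measure the spread between these samples.

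Fatty acid synthesis turns citrate into palmitate in the cytosol: ATP citrate lyase makes acetyl-CoA, acetyl-CoA carboxylase makes malonyl-CoA, fatty acid synthase joins them with NADPH, and elongases and desaturases shape the product. SREBP-1, released from its membrane anchor by proteolysis and promoted by insulin, and ChREBP, activated by sugar metabolites, switch on the genes of these enzymes. In the kidney the pathway is known from diabetic models, in which lipid gathers in tubule and glomerular cells, and statins act on the sister factor SREBP-2 by lowering sterol synthesis.

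The libraries did not all fit their labels or their group. The library labelled Db replicate 1 held 2 counts of the Y-linked genes Ddx3y, Eif2s3y, Kdm5d and Uty together, against 1419 to 2116 in each of the other 5, although the methods describe males. On the first principal component, which held 71.1% of the variance, Db+Ato10 replicate 1 stood at 107 and Db+Ato10 replicate 2 at 46.1. Db+Ato10 replicate 3 stood at -18.8, beside Db replicate 2 at -26.9, while Db replicates 1 and 3 stood at -55.4 and -52. Fold changes of the members and medians of the pathway lists are therefore also given with Db replicate 1 or Db+Ato10 replicate 1 left out.

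None of the 10 members passed both criteria of the study, a Benjamini-Hochberg adjusted p under 0.05 and more than a 1.5-fold difference, in edgeR's quasi-likelihood test. The same test called 0 of 13679 genes (0%), with 2314 genes at an unadjusted p under 0.05. DESeq2 called 884 of them (6.46%) and none of the members. All 10 members had a log2 fold change (Db+Ato10 over Db) below 0, from -1.02 for Scd1 to -0.033 for Mlxipl, against 50.6% of all tested genes, and the sign of 5 of them turned when 1 library was left out. The median over the members was -0.23, and over all tested genes -0.0063. Leaving out Db replicate 1 gave 8 members below 0 and a median of -0.21, and leaving out Db+Ato10 replicate 1 also gave 8 and -0.21. At an unadjusted p under 0.05 stood 1 member, Acacb, which was lower (5.71% of all tested genes were lower at that level), and no member was higher (11.2% of all tested genes). Acacb was also the member whose Db+Ato10 libraries all lay below all Db libraries, 1 of 10 beside 11.3% of all tested genes, and no member lay above in the same way (12% of all tested genes). These counts of 1 and 0 among 10 members are near the shares of all genes. A lower level in whole kidney can mean fewer cells that make the RNA or less RNA per cell, and bulk libraries cannot tell these apart.

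**Figure D1:**
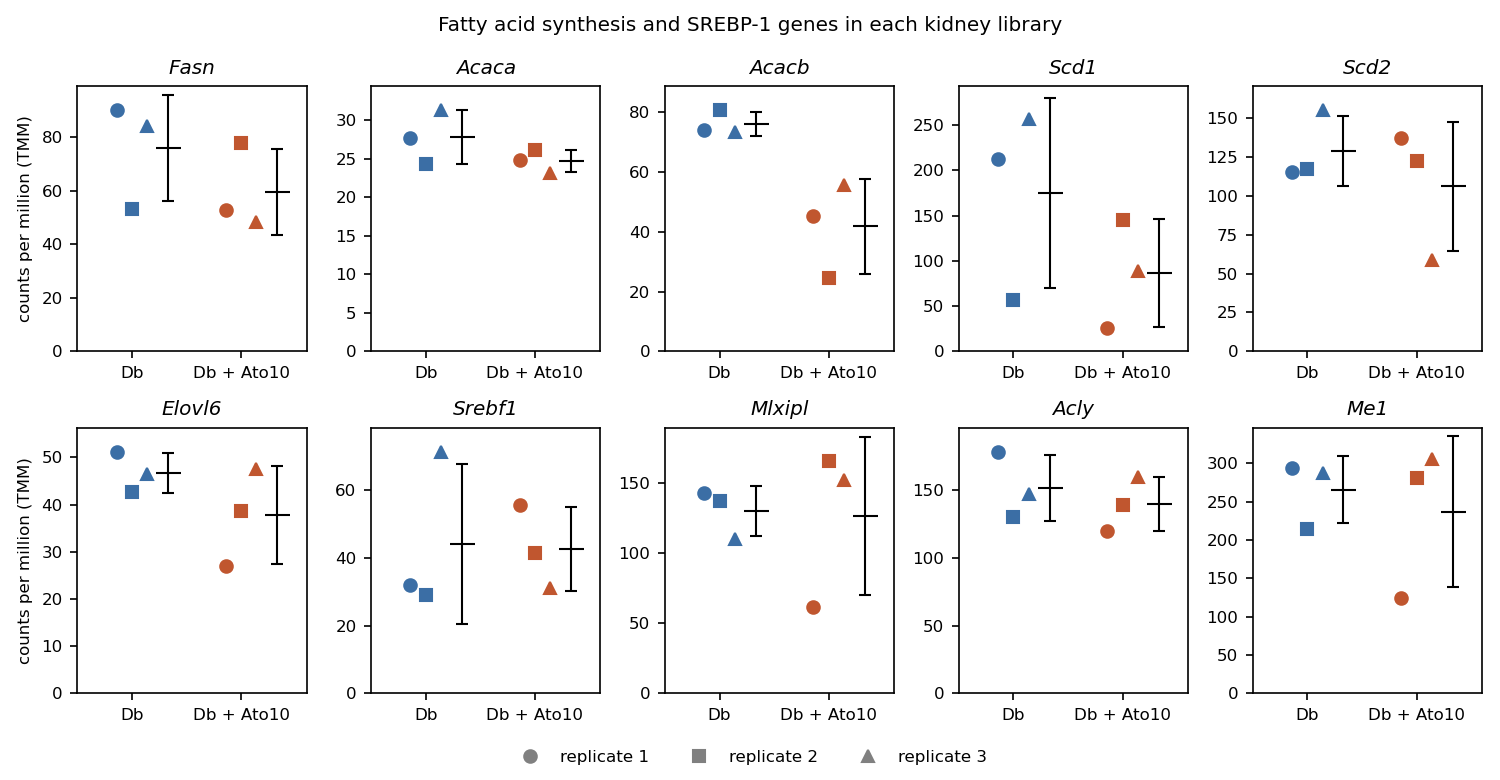
CPM (TMM-scaled, linear axis from 0) of each member in the 3 Db and 3 Db+Ato10 libraries, 1 point per library with its replicate number as the symbol, and the mean with its SD (n = 3) as a bar beside the points. Acacb is the member with no overlap between the groups, while Scd1 runs from 56.3 to 257 CPM within the Db group alone.

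Srebf1 (gene 20787) encodes SREBP-1, the membrane-bound factor that drives the enzymes of the pathway. Its RNA stood at 31.9, 28.9 and 71.2 CPM in Db replicates 1 to 3 and at 55.6, 41.3 and 31.1 CPM in Db+Ato10 replicates 1 to 3. Db replicate 3 was the highest of the 6 and Db replicate 2 the lowest, so that the Db libraries bracketed the treated ones and the groups overlapped. The means were 44.0 ± 23.6 CPM in Db and 42.7 ± 12.3 CPM in Db+Ato10 (SD, n = 3). Its log2 fold change was -0.044 with a standard error (SE) of 0.40 and an edgeR adjusted p of 0.96. The sign was not stable. With Db replicate 3 left out the log2 fold change was 0.49, and with Db+Ato10 replicate 3 left out it was 0.14. Leaving out Db replicate 1 or Db+Ato10 replicate 1 gave -0.22 and -0.27.

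Mlxipl (gene 58805) encodes ChREBP, the factor that couples sugar metabolism to fatty acid synthesis. It stood at 143, 137 and 110 CPM in Db replicates 1 to 3 and at 61.7, 166 and 152 CPM in Db+Ato10 replicates 1 to 3. Db+Ato10 replicate 1 was the lowest of the 6 libraries and the other treated libraries were the highest, so that the treated group enclosed the Db group. The log2 fold change was -0.033 (SE 0.37, edgeR adjusted p 0.968), and it was 0.31 leaving out Db+Ato10 replicate 1, 0.051 leaving out Db replicate 1 and 0.0084 leaving out Db replicate 2.

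The transcript table split Srebf1 into 7 RefSeq transcripts, of which 5 passed the filter. NM_011480.4 had 260.7, 252.8 and 180.4 estimated counts in Db replicates 1 to 3 and 491.1, 315.3 and 243.2 in Db+Ato10 replicates 1 to 3. XM_006532715.2 had 121.9, 0 and 521.7 estimated counts in the Db replicates and 77, 76 and 87.5 in the treated ones. The first was the main transcript in 5 of the 6 libraries, and Db replicate 3 was the exception, where the second held more. As shares of all Srebf1 counts, NM_011480.4 held 65%, 75.9% and 20.5% in the Db replicates and 58.2%, 51.6% and 61.6% in the treated ones, and XM_006532715.2 held 30.4%, 0% and 59.2% against 9.13%, 12.4% and 22.1%. The high Srebf1 level of Db replicate 3 thus lay in a few transcripts: XM_006532715.2 and XM_006532716.2 together came to 51.3 CPM there, against 10.1 and 0 CPM in Db replicates 1 and 2 and 5.69, 5.89 and 7.8 CPM in the treated libraries. The other Srebf1 transcripts together stood at 21.7, 28.8 and 19.9 CPM in the Db replicates and at 49.2, 35.4 and 23.2 CPM in Db+Ato10 replicates 1 to 3. Those sums overlapped between the groups, since Db replicate 2 lay above Db+Ato10 replicate 3. The pair taken out was picked for its high values in Db replicate 3. The sums of the others are thus lowered there by choice and are no test of a difference between the groups.

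Among the remaining Srebf1 transcripts, XM_006532714.3 had 0, 19 and 0 estimated counts in the Db replicates and 95.8, 158.5 and 22.2 in the treated ones. Its treated libraries all lay above the Db libraries in counts, but as a share of Srebf1 the groups overlapped (0%, 5.71% and 0% against 11.3%, 25.9% and 5.62%). NM_001313979.1, a minor transcript in all 6 libraries, held 3.14% to 8.56% of the counts in Db and 7.71% to 8.49% in Db+Ato10. XM_006532716.2 held 12.9% in Db replicate 3 and 0% to 2.95% in the other 5 libraries. XM_006532717.2, with counts in Db replicate 2 and Db+Ato10 replicate 1 alone, and XM_011248845.2, with counts in Db replicate 3 alone, did not pass the filter. The groups overlapped in the share of each of the 5 tested transcripts, and the exact two-sided permutation p of the shares ran from 0.2 for XM_006532714.3 to 1 for NM_011480.4, where 3 against 3 libraries allow no p under 0.1.

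In the fit over all 30175 tested transcripts, edgeR called 0 (0%) and DESeq2 889 (2.95%), and neither called a Srebf1 transcript. None of the 5 tested Srebf1 transcripts reached an unadjusted p under 0.05. The log2 fold change of NM_011480.4 was 0.39 (SE 0.30, edgeR adjusted p 0.782), and it was 0.11 leaving out Db+Ato10 replicate 1, 0.22 leaving out Db replicate 3 and 0.45 leaving out Db replicate 1. That of XM_006532715.2 was -1.57 (SE 1.62, edgeR adjusted p 0.841). Without Db replicate 3, which carried most of its Db counts, XM_006532715.2 turned to 0.26. XM_006532714.3 had the log2 fold change farthest from 0, 3.54 (SE 1.88, edgeR adjusted p 0.688), a fitted value that rests on 19 estimated counts in Db replicate 2, since the other Db libraries were at 0. With that library left out, XM_006532714.3 and XM_006532715.2 stood at an unadjusted p under 0.05, as did 7.14% of all transcripts in that fit, and neither was called. Transcripts of 1 gene share most of their exons, so these counts are estimates of how shared reads were divided, and a 0 beside large counts can be an outcome of that division.

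**Figure D2:**
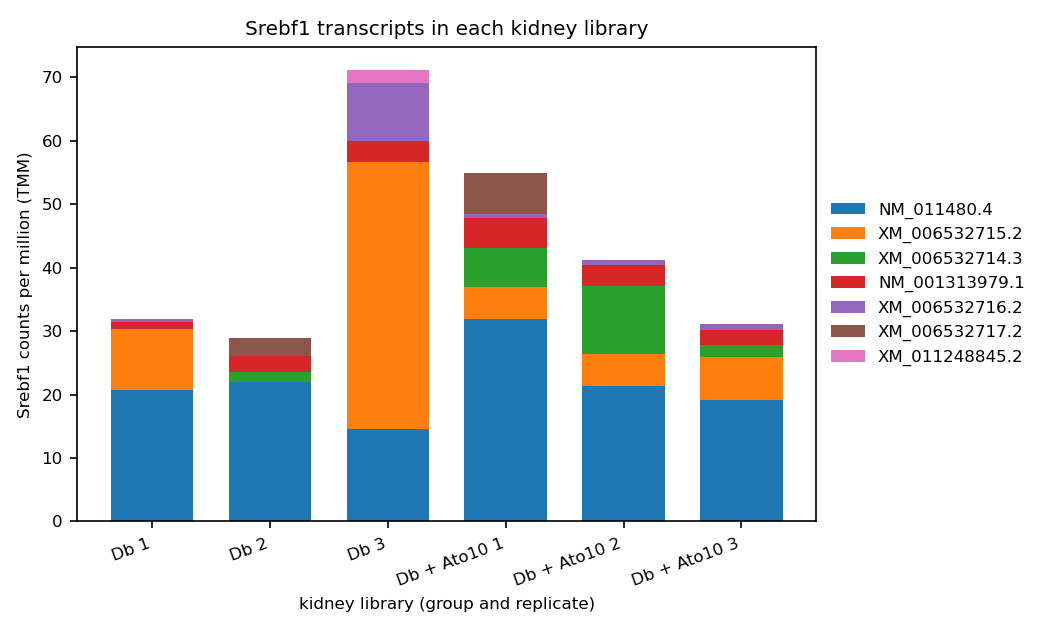
Stacked bars of Srebf1 CPM (TMM-scaled, axis from 0) by RefSeq transcript in each of the 3 Db and 3 Db+Ato10 libraries. Db replicate 3 reaches 71.2 CPM, of which XM_006532715.2 makes up 42.1 CPM, and NM_011480.4 lies between 14.6 and 31.9 CPM in the 6 libraries.

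The enzymes that feed the pathway came next. Acly (gene 104112), the lyase that makes cytosolic acetyl-CoA from citrate, stood at 178, 130 and 147 CPM in Db replicates 1 to 3 and at 120, 139 and 160 CPM in Db+Ato10 replicates 1 to 3. Db replicate 1 was the highest and Db+Ato10 replicate 1 the lowest, with the other 4 libraries mixed between them. The log2 fold change was -0.12 (SE 0.18, edgeR adjusted p 0.72), and it came to 0.018 leaving out Db replicate 1 and -0.018 leaving out Db+Ato10 replicate 1.

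Acly has a pair of transcripts in the table, and their proportions separated the groups. NM_001199296.1 held 16.9%, 21.5% and 16.5% of the Acly counts in Db replicates 1 to 3 and 34.4%, 23.9% and 23.8% in Db+Ato10 replicates 1 to 3, and NM_134037.3 held the rest. The treated libraries all lay above the Db libraries, with Db+Ato10 replicate 1 the farthest, and the mean shares were 27.4% and 18.3%. The exact two-sided permutation p was 0.1, the smallest that 3 against 3 libraries allow. Among members, 6 had 2 or more tested transcripts, 23 shares were compared, and 3 of the 23 did not overlap between the groups, beside 15.6% of the 24340 shares of all such genes. The smallest Benjamini-Hochberg adjusted value over the 23 was 0.657. The Acly pair counts as 2 of the 3, since their shares add to the whole. In counts, NM_001199296.1 had a log2 fold change of 0.48 (SE 0.17, edgeR adjusted p 0.554) and NM_134037.3 of -0.26 (SE 0.22, edgeR adjusted p 0.805).

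Me1 (gene 17436), the cytosolic malic enzyme that yields NADPH, stood at 294, 215 and 288 CPM in Db replicates 1 to 3 and at 124, 281 and 306 CPM in Db+Ato10 replicates 1 to 3. Db+Ato10 replicate 1 lay far below the other 5 libraries, and Db+Ato10 replicate 3 was the highest of all. The log2 fold change was -0.17 (SE 0.35, edgeR adjusted p 0.812), turned to 0.15 leaving out Db+Ato10 replicate 1 and was -0.077 leaving out Db replicate 1. Its main transcripts, NM_008615.2 and XM_011242666.2, overlapped between the groups in their shares.

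The carboxylases make malonyl-CoA, Acaca for synthesis in the cytosol and Acacb at the mitochondrial surface, where malonyl-CoA restrains the entry of fatty acids for oxidation. Acacb (gene 100705) stood at 74.2, 80.7 and 73.3 CPM in Db replicates 1 to 3 and at 45.3, 24.4 and 55.8 CPM in Db+Ato10 replicates 1 to 3. The Db libraries lay close together, and the treated libraries all lay below them, with Db+Ato10 replicate 2 the lowest. By their median deviation from Db, the markers of the thick ascending limb and distal tubule were also lower in all treated libraries. So were those of the collecting duct. Both lists were lowest in Db+Ato10 replicate 2. Their sums are given with the cell types, and their part in the Acacb values was not tested. The means were 76.1 ± 4.05 CPM in Db and 41.8 ± 16.0 CPM in Db+Ato10 (SD, n = 3), which is 0.55 of the Db level in the fit. Its log2 fold change was -0.86 (SE 0.29), with an unadjusted p of 0.0233 and an adjusted p of 0.245 in edgeR, and it did not pass the test. DESeq2 gave it an adjusted p of 0.117. Over the libraries left out in turn, the log2 fold change ran from -1.12 to -0.57, with -0.87 leaving out Db replicate 1 and -0.92 leaving out Db+Ato10 replicate 1. Its edgeR adjusted p was 0.588, 0.405 and 0.553 with Db replicate 1, 2 or 3 left out, and 0.363, 0.432 and 0.0649 with Db+Ato10 replicate 1, 2 or 3 left out. With Db replicate 1 or Db replicate 2 left out, Acacb no longer stood at an unadjusted p under 0.05. The fit with Db+Ato10 replicate 3 left out called 1106 of 13517 genes (8.18%) and none of the members.

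Acacb has 4 transcripts in the table, of which 3 passed the filter. NM_133904.2 had a log2 fold change of -1.65 (SE 0.52, edgeR adjusted p 0.523) and XM_006530113.3 of -1.87 (SE 0.56, edgeR adjusted p 0.521), while that of XM_006530114.3 was -0.11 (SE 0.67, edgeR adjusted p 0.978). XM_006530113.3 held 11%, 13.1% and 5.88% of the Acacb counts in the Db replicates and 4.93%, 4.68% and 4.98% in the treated ones, with no overlap (exact two-sided permutation p 0.1). With the Acly transcript NM_001199296.1, these were 3 of 27 tested member transcripts at an unadjusted p under 0.05, beside 8.19% of all tested transcripts.

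Acaca (gene 107476) stood at 27.7, 24.3 and 31.3 CPM in Db replicates 1 to 3 and at 24.8, 26.1 and 23.2 CPM in Db+Ato10 replicates 1 to 3. All 6 libraries lay within a narrow range, and the groups overlapped. Acaca had a log2 fold change of -0.17 (SE 0.15, edgeR adjusted p 0.545), -0.16 leaving out Db replicate 1 or Db+Ato10 replicate 1. It was -0.074 leaving out Db replicate 3 and -0.25 leaving out Db replicate 2.

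Fasn (gene 14104), the synthase that builds palmitate, stood at 90.2, 53.4 and 84.3 CPM in Db replicates 1 to 3 and at 52.8, 78.0 and 48.3 CPM in Db+Ato10 replicates 1 to 3. Db replicates 1 and 3 and Db+Ato10 replicate 2 were high and the other 3 libraries low, so that each group held libraries of either level. For Fasn the log2 fold change was -0.35 (SE 0.27, edgeR adjusted p 0.5), -0.20 leaving out Db replicate 1 and -0.26 leaving out Db+Ato10 replicate 1. Without the low Db replicate 2 it came to -0.55, without the high Db+Ato10 replicate 2 to -0.57, and without Db+Ato10 replicate 3 to -0.21.

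Elovl6 (gene 170439), the elongase that lengthens palmitate to stearate, stood at 51.1, 42.6 and 46.5 CPM in Db replicates 1 to 3 and at 26.9, 38.6 and 47.6 CPM in Db+Ato10 replicates 1 to 3. Db+Ato10 replicate 1 was the lowest, and Db+Ato10 replicate 3 lay inside the Db range. Elovl6 had a log2 fold change of -0.31 (SE 0.22, edgeR adjusted p 0.471), -0.23 leaving out Db replicate 1 and -0.11 leaving out Db+Ato10 replicate 1. With Db+Ato10 replicate 3 left out it was -0.51 (edgeR adjusted p 0.161), and Elovl6 then stood at an unadjusted p under 0.05, as did 29.9% of all genes in that fit.

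Scd1 (gene 20249), a desaturase that makes oleate and palmitoleate, stood at 212, 56.3 and 257 CPM in Db replicates 1 to 3 and at 25.7, 145 and 89.0 CPM in Db+Ato10 replicates 1 to 3. Db replicate 2 lay below Db+Ato10 replicates 2 and 3, and Db+Ato10 replicate 1 was the lowest of the 6. The means were 175 ± 105 CPM in Db and 86.5 ± 59.6 CPM in Db+Ato10 (SD, n = 3), a difference smaller than the spread within Db. Scd1 had the log2 fold change farthest from 0 among the members, -1.02, with an SE of 0.74 and an edgeR adjusted p of 0.476. It was -0.86 leaving out Db replicate 1 and -0.57 leaving out Db+Ato10 replicate 1, and over all libraries left out in turn it ran from -1.61 to -0.57.

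Scd2 (gene 20250), a second desaturase of the same substrates, did not follow Scd1. It stood at 115, 117 and 155 CPM in Db replicates 1 to 3 and at 137, 122 and 58.9 CPM in Db+Ato10 replicates 1 to 3. Db+Ato10 replicate 3 alone was low, and the other treated libraries lay inside the Db range. Scd2 had a log2 fold change of -0.29 (SE 0.32, edgeR adjusted p 0.641), -0.35 leaving out Db replicate 1, -0.50 leaving out Db+Ato10 replicate 1 and 0.0091 leaving out Db+Ato10 replicate 3. The desaturase genes are close relatives, and how reads that match more than 1 of them were divided is not given in the sources used here. The other relatives, Scd3 and Scd4, had at most 5 and 7 counts in any library.

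Among the Db libraries the members varied very unequally. Scd1 had a coefficient of variation (CV) of 60.2% over the 3 Db libraries, its highest library 4.57 times its lowest, and 3.78% of all tested genes had a larger CV there. Srebf1 had a CV of 53.8% and a ratio of 2.47, with 5.21% of all tested genes above it, and Fasn a CV of 26% and a ratio of 1.69. The remaining 7 members had a CV between 5.32% for Acacb and 17.5% for Scd2, against a median of 13.5% over all tested genes. The order of the libraries differed between genes: Scd1 and Fasn were low in Db replicate 2 alone, while Srebf1 was low in Db replicates 1 and 2. In the treated group the CV ran from 5.9% for Acaca to 68.9% for Scd1, with a median of 22.1% over all tested genes.

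Levels of different genes were compared as transcripts per 1000000 (TPM), which corrects for gene length. In Db, Me1 had the highest level of the members, 147 ± 23.0 TPM (SD, n = 3), and its libraries lay above those of all other members. Mlxipl (66.1 ± 9.45 TPM), Scd1 (62.5 ± 37.6) and Acly (59.8 ± 9.56) followed with overlapping ranges, and Scd2 (40.7 ± 7.07) lay below Acly without overlap. Srebf1 (17.8 ± 9.6) and Acacb (15.4 ± 0.938) overlapped, as did Elovl6 (13.5 ± 1.19) and Fasn (13.0 ± 3.35), and Acaca was the lowest at 5.4 ± 0.688 TPM. In Db+Ato10, Me1 (126 ± 55.1 TPM), Mlxipl (61.8 ± 29.9) and Acly (51.9 ± 8.73) led, and Acaca (4.56 ± 0.434) was again the lowest. Acacb stood at 7.99 ± 2.91 TPM, and its range overlapped those of Elovl6, Fasn and Acaca there, while in Db it had overlapped Fasn and lain above Elovl6 and Acaca.

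Read by library, the low values gathered in Db+Ato10 replicate 1. It held the lowest value of 5 of the 10 members (Scd1, Elovl6, Mlxipl, Acly and Me1), Db+Ato10 replicate 3 the lowest of 3 (Fasn, Acaca and Scd2), Db+Ato10 replicate 2 that of Acacb and Db replicate 2 that of Srebf1. The summed TPM of the members was 480, 353 and 489 in Db replicates 1 to 3 and 227, 436 and 386 in Db+Ato10 replicates 1 to 3. Db replicate 2 thus lay below 2 of the 3 treated libraries, and Db+Ato10 replicate 1 stood apart below all. The median deviation of the members from the Db mean, in log2 CPM, was -0.62 in Db+Ato10 replicate 1, -0.037 in replicate 2 and -0.31 in replicate 3 of the treated group, and -0.20 in Db replicate 2.

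**Figure D3:**
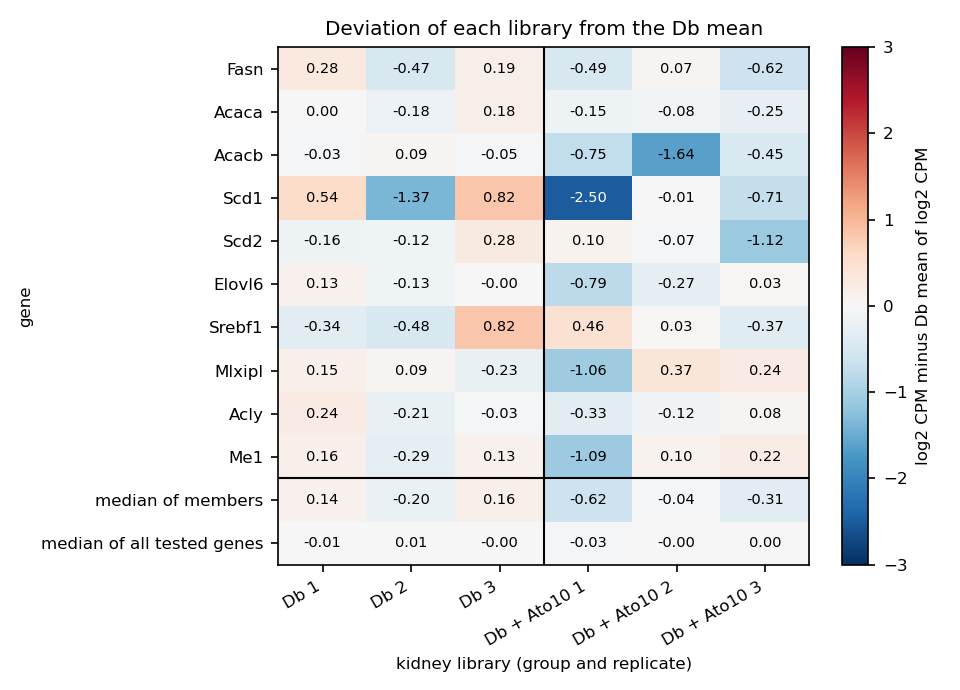
Deviation of each library (columns, 3 Db and 3 Db+Ato10) from the mean of the Db libraries in log2 CPM for each member (rows), with the median over the members and over all tested genes in the bottom rows; blue is lower and red higher. The deviations of Scd1 run from -2.50 to 0.82, and those of Acacb are negative in all 3 treated libraries.

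The gene that leads a list is the most abundant by its mean TPM over the 6 libraries. Markers of kidney cell types differed between the libraries, and those of the proximal tubule were lowest in the same library as the members. The 8 proximal tubule markers, led by the phosphate transporter Slc34a1, summed to 8070, 6230 and 8030 TPM in Db replicates 1 to 3 and to 1060, 4470 and 7770 TPM in Db+Ato10 replicates 1 to 3. Db+Ato10 replicate 1, the library with the lowest member sum, was also lowest here, and Db+Ato10 replicate 3 lay inside the Db range. The 6 markers of the thick ascending limb and distal tubule, led by Umod, summed to 5410, 6370 and 5500 TPM in Db and to 2940, 1590 and 3990 TPM in Db+Ato10, lowest in Db+Ato10 replicate 2. Of the 6, 5 lay below in all treated libraries (11.3% of all tested genes). DESeq2 called 5 of them lower, beside 177 of all 13679 tested genes. The 8 leukocyte markers, led by the lysozyme gene Lyz2, summed to 73.1, 153 and 116 TPM in Db and to 4980, 1140 and 166 TPM in Db+Ato10, so that all treated libraries lay above and Db+Ato10 replicate 1 far above. Of the 6 tested ones, 4 lay above without overlap (12% of all tested genes). DESeq2 called 5 higher, beside 707 of all 13679 tested genes. The 6 collecting duct markers, led by Aqp2, summed to 862, 689 and 1130 TPM in Db and to 675, 455 and 675 TPM in Db+Ato10, with 4 below without overlap and 3 called lower by DESeq2. The 5 podocyte markers, led by Podxl, summed to 226, 145 and 141 TPM in Db and to 208, 76.7 and 137 TPM in Db+Ato10. edgeR called 0 of the markers in the fit over the 6 libraries. Without Db+Ato10 replicate 3 it called 1 proximal tubule, 4 thick ascending limb and distal tubule, 2 collecting duct and 5 leukocyte markers. In that fit 8.18% of all genes were called. The collecting duct and podocyte lists were also lowest in Db+Ato10 replicate 2, and the podocyte sum of Db+Ato10 replicate 1 lay within the Db range. All of these marker lists held genes with counts, as the label kidney asks, and no defining marker of them was at 0 in all libraries. Their part in the member values was not tested.

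Markers of tissues with strong fatty acid synthesis were low or mixed. Of the adipocyte list, Plin1, Adrb3 and Adipoq had under 3 counts in each of the 6 libraries, and Cfd and Retn had at most 3 and 5. The list of 8 summed to 329, 238 and 231 TPM in Db and to 511, 142 and 290 TPM in Db+Ato10, nearly all of it from Fabp4, which capillary endothelium and macrophages also make, and from Lipe. Cidec, which coats lipid droplets, had 4, 4 and 6 counts in the Db replicates and 14, 24 and 12 in the treated ones. All treated libraries lay above all Db libraries for Cidec (log2 fold change 1.58, SE 0.44, edgeR adjusted p 0.239), at 1.62 CPM or less, and its part in the member values was not tested. The 5 hepatocyte genes present, led by Serpina1a, summed to 385, 298 and 450 TPM in Db and to 148, 476 and 643 TPM in Db+Ato10. Serpina1a made up most of these sums except in Db replicate 1, and Ttr held 162.6 TPM in Db replicate 1 and 205.6 TPM in Db+Ato10 replicate 2. The list split, with 2 tested genes lower and 2 higher by log2 fold change. Apoa2 stood at 24.9, 25.5 and 23.6 TPM in the Db replicates and at 8.76, 7.2 and 27.8 TPM in the treated ones, and Alb, the albumin gene, at 27.3, 17.4 and 19.1 TPM against 1.08, 1.3 and 14.6 TPM, with no overlap for Alb (edgeR adjusted p 0.367). Without Db+Ato10 replicate 3, edgeR called Alb and Apoa2 lower (adjusted p 0.0233 and 0.0399). The 4 adrenal cortex genes present, led by Hsd3b1, summed to at most 5.8 TPM in any library.

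Around the members, 93 of 99 genes on 7 lists of the same pathway were tested. edgeR called 0 of them, and at an unadjusted p under 0.05 stood 3 higher (Akt1, G6pdx and Pgd) and 6 lower (Irs1, Pik3ca, Elovl7, Me3, Acsl3 and Gpam). DESeq2 called 2, Irs1 and Acsl3, both lower, and edgeR without Db+Ato10 replicate 3 called 6, Irs1, Acsl3, Lpin1 and Ndufab1 lower and G6pdx and Pgd higher. Lpin1 was highest in Db+Ato10 replicate 3, at 104 CPM, and its log2 fold change was 0.0103 with that library and -1.1 without it. The groups did not overlap for 15 genes below and 4 above. Over all tested genes the shares were 5.71% lower and 11.2% higher at that unadjusted p, 11.3% below and 12% above without overlap, 6.46% called by DESeq2 and 8.18% called by edgeR without Db+Ato10 replicate 3, and the counts of each list given next stand beside the same shares. By direction, DESeq2 called 177 of the 13679 tested genes lower and 707 higher. The median log2 fold change of the 93 genes was -0.17, against -0.0063 over all tested genes. Without Db replicate 1 the 93 held 2 lower and 0 higher at an unadjusted p under 0.05, beside 2.52% and 5.16% of all genes in that fit, with a median of -0.16. Without Db+Ato10 replicate 1 they held 4 lower and 3 higher, beside 4.71% and 7.72%, with a median of -0.049. Db+Ato10 replicate 3 moved these values most: with it left out, 23 were lower and 6 higher, with a median of -0.31, while the shares of all genes in that fit were 13.1% lower and 16.8% higher.

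The machinery that senses sterols and cleaves SREBP comprised 11 tested genes, of which 0 reached an unadjusted p under 0.05, 3 lay below without overlap (11.3% of all tested genes) and none above (12%), and the median log2 fold change was -0.22, or -0.18 leaving out Db replicate 1 and -0.033 leaving out Db+Ato10 replicate 1. Scap, the escort that carries SREBP to the Golgi, stood at 98.3, 94.4 and 123 CPM in the Db replicates and at 77.1, 83.8 and 93.6 CPM in the treated ones (log2 fold change -0.31, SE 0.16, edgeR adjusted p 0.353). Mbtps1, the first of the proteases that free SREBP, stood at 96.2, 96.8 and 93.3 CPM against 87.3, 68.9 and 84.8 CPM. Insig2, which retains Scap in the endoplasmic reticulum, stood at 56.7, 52.2 and 52.6 CPM against 42.6, 45.4 and 51.8 CPM. The treated libraries lay below the Db libraries for all 3 of these genes, by a margin of less than 1 CPM for Scap and Insig2.

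Upstream of Srebf1, in insulin, mTOR and LXR signalling, 19 genes were tested, with 1 higher and 2 lower at an unadjusted p under 0.05, 4 below and 1 above without overlap, and a median of -0.075, or -0.11 leaving out Db replicate 1 and 0.032 leaving out Db+Ato10 replicate 1. Without Db+Ato10 replicate 3 the median was -0.3, with 7 lower and 1 higher at that level (13.1% and 16.8% of all genes in that fit). Irs1, the adaptor that passes the insulin signal on, stood at 36.9, 26.6 and 26.8 CPM in the Db replicates and at 10.9, 10.5 and 19.7 CPM in the treated ones. Its groups did not overlap, and its log2 fold change was -1.14 (SE 0.30) with an adjusted p of 0.239 in edgeR and 0.0224 in DESeq2. It was -0.95 with Db replicate 1 left out and -0.99 with Db+Ato10 replicate 1 left out. Pik3ca, the catalytic subunit of phosphoinositide 3-kinase, stood at 104, 96.6 and 85.8 CPM against 62.6, 66.8 and 82.2 CPM (log2 fold change -0.44, edgeR adjusted p 0.258, and -0.35 leaving out Db+Ato10 replicate 1). Akt1, the kinase downstream of it and the most abundant gene of the list, lay on the other side, at 114, 123 and 126 CPM against 230, 172 and 134 CPM (log2 fold change 0.56, edgeR adjusted p 0.272, and 0.35 leaving out Db+Ato10 replicate 1). The order of the treated libraries in Akt1 was that of the leukocyte markers, with Db+Ato10 replicate 1 the highest, and the part of those cells was not tested.

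Of the partners and targets of ChREBP, 9 were tested and 0 reached an unadjusted p under 0.05, with 1 below and 1 above without overlap and a median of -0.024, or 0.016 leaving out Db replicate 1 and 0.0044 leaving out Db+Ato10 replicate 1. Slc2a2, the glucose transporter of the proximal tubule and liver, stood at 220, 179 and 172 CPM in the Db replicates and at 44.7, 138 and 160 CPM in the treated ones (log2 fold change -0.74, edgeR adjusted p 0.411, and -0.35 leaving out Db+Ato10 replicate 1). Khk, the fructose kinase and the most abundant gene of the list, stood at 755, 694 and 806 CPM against 334, 430 and 775 CPM. Mlxip, which encodes the ChREBP relative MondoA, lay above, at 34.8, 31.9 and 27.1 CPM against 59.4, 35.7 and 36 CPM (log2 fold change 0.48, edgeR adjusted p 0.343, and 0.21 leaving out Db+Ato10 replicate 1).

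Elongation and desaturation outside the members gave 12 tested genes, with 1 lower and 0 higher at an unadjusted p under 0.05, 1 below without overlap and a median of -0.18, or -0.075 leaving out Db replicate 1 and 0.045 leaving out Db+Ato10 replicate 1. The lower gene was Elovl7, an elongase, at 163, 123 and 130 CPM in the Db replicates and 103, 103 and 95.9 CPM in the treated ones (log2 fold change -0.46, SE 0.15, edgeR adjusted p 0.239). Fads2, the first desaturase of polyunsaturated fatty acids, stood at 66.5, 43.3 and 89.3 CPM against 13.5, 35.7 and 60.9 CPM. Like Scd1, Fads2 was lowest in Db+Ato10 replicate 1, highest in Db replicate 3 and lowest among the Db libraries in replicate 2. Tecr, the reductase of the elongation cycle and the most abundant gene of the list, overlapped between the groups.

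Substrate supply, NADPH and regulators of synthesis gave 17 tested genes, with 2 higher and 1 lower at an unadjusted p under 0.05, 2 above and 2 below without overlap, and a median of -0.16, or -0.15 leaving out Db replicate 1 and -0.19 leaving out Db+Ato10 replicate 1. The higher ones were the oxidative enzymes of the pentose phosphate pathway, which make NADPH. G6pdx stood at 46.2, 53.2 and 51.4 CPM in the Db replicates and at 130, 81 and 60 CPM in the treated ones (log2 fold change 0.85, SE 0.29, edgeR adjusted p 0.243), and Pgd stood at 105, 106 and 116 CPM against 276, 204 and 126 CPM (log2 fold change 0.89, SE 0.28, edgeR adjusted p 0.239). In both, Db+Ato10 replicate 1 was the highest and replicate 3 the lowest of the treated libraries, the order of the leukocyte markers, and the part of those cells was not tested. Without Db+Ato10 replicate 1 the log2 fold changes were 0.50 for G6pdx and 0.61 for Pgd. Me3, a mitochondrial malic enzyme, lay below, at 64.8, 69.4 and 60.2 CPM against 52.8, 33.2 and 50.5 CPM (log2 fold change -0.51, edgeR adjusted p 0.28). Mdh1, the cytosolic malate dehydrogenase and the most abundant gene of the list, overlapped between the groups.

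Mitochondrial fatty acid synthesis, a separate pathway that supplies lipoic acid, gave 9 tested genes, of which 0 reached an unadjusted p under 0.05, 2 lay below without overlap (11.3% of all tested genes) and all 9 had a log2 fold change below 0 (50.6% of all tested genes), with a median of -0.31. The median was -0.29 leaving out Db replicate 1, and leaving out Db+Ato10 replicate 1 it was -0.14, with 8 of the 9 below 0. Leaving out Db+Ato10 replicate 3 it was -0.54. In that fit 4 of the 9 were lower at an unadjusted p under 0.05, beside 13.1% of all genes. Oxsm, its condensing enzyme, stood at 40.8, 33.5 and 33 CPM in the Db replicates and at 12.5, 28.2 and 32.5 CPM in the treated ones. Mecr, its reductase, stood at 45.9, 34.3 and 37.3 CPM against 27.4, 26.3 and 40.9 CPM. Ndufab1, its acyl carrier protein and the most abundant of the list, stood at 196, 185 and 200 CPM against 117, 120 and 199 CPM, so that Db+Ato10 replicate 3 was at the Db level (log2 fold change -0.41, edgeR adjusted p 0.392, and -0.70 with 0.0432 without that library). The genes of this list shared with Slc34a1 a Db+Ato10 replicate 3 near the Db level, and the part of tubule cells was not tested.

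Acyl-CoA synthetases and glycerolipid synthesis, the use of the fatty acids made, gave 16 tested genes, with 2 lower and 0 higher at an unadjusted p under 0.05, 2 below without overlap and a median of -0.090, or -0.12 leaving out Db replicate 1 and -0.0049 leaving out Db+Ato10 replicate 1. Without Db+Ato10 replicate 3 the median was -0.11, with 5 lower and 2 higher at that level (13.1% and 16.8% of all genes in that fit). Acsl3, a synthetase of the endoplasmic reticulum and lipid droplets, stood at 27.1, 25.7 and 28.3 CPM in the Db replicates and at 13.6, 15 and 19.3 CPM in the treated ones. Its Db libraries lay within a narrow range and all treated libraries lay below them. Acsl3 had a log2 fold change of -0.76 (SE 0.17), with an adjusted p of 0.239 in edgeR and 0.0122 in DESeq2, and it was -0.75 leaving out Db replicate 1 and -0.65 leaving out Db+Ato10 replicate 1. Gpam, the mitochondrial acyltransferase that starts glycerolipid synthesis, stood at 204, 172 and 129 CPM against 63.6, 98.7 and 136 CPM (log2 fold change -0.76, SE 0.31, edgeR adjusted p 0.289), with Db+Ato10 replicate 3 inside the Db range. Acsl1, the most abundant of the list by its mean TPM over the 6 libraries though below Agpat3 in 4 of them, stood at 600, 792 and 303 CPM against 262, 248 and 409 CPM, and Acsl4, a synthetase for arachidonate, at 70.3, 87.1 and 54.1 CPM against 117, 187 and 72.2 CPM. The groups overlapped for Acsl1 and Acsl4.

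The genes whose log2 CPM over the 6 libraries was most like that of 3 members were named as a description, with no test. Most like Scd1 were Ccny (Pearson's r 0.993, Spearman's rho 1), Tent4a (0.988, rho 1), Abhd2 (0.986, rho 0.943), Map3k4 (0.985, rho 1) and Clic5 (0.982, rho 1). Of these genes, 4 had the same order of the libraries as Scd1, while Abhd2 had Db replicate 1 above Db replicate 3, and Clic5 stood at 139, 96 and 149 CPM in the Db replicates and at 59.7, 118 and 104 CPM in the treated ones. Most like Fasn were Agap1 (r 0.989, rho 0.943), Scaf4 (0.96, rho 1), Kif3b (0.952, rho 1), Gfpt1 (0.941, rho 0.771) and Snrpa (0.934, rho 1). Most like Srebf1 were Ctdspl (r 0.993, rho 1), Ube2k (0.982, rho 0.943), Pigs (0.957, rho 0.943), Phtf1 (0.954, rho 0.771) and Uchl3 (0.952, rho 0.943). Each was taken among the closest of 10012 tested genes with a mean of at least 10 CPM, so that its r is high by choice.

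Promoter sequences of the members were searched for motifs of SREBP-1, ChREBP and their partners. RefSeq windows of assembly GRCm38.p6, from 250 bases before to 50 bases after a gene's start, were found for 8 of the 10 members (12 windows), while Scd1 and Scd2 had none. The windows of Srebf1, Acaca, Acly and Fasn lie on chromosome 11 and those of Acacb and Mlxipl on chromosome 5. On both strands 4 motifs were searched: TCACNCCAC, a form of the sterol regulatory element that SREBP binds; CACGTG, an E-box that SREBP-1 and ChREBP can bind; CCAAT, bound by the SREBP partner NF-Y; and GGGCGG, bound by the partner Sp1. TCACNCCAC was in 1 of the 12 windows, of Mlxipl, and in 1.24% of all 32851 windows, and CACGTG was in 1, of Mlxipl, and in 7.15% of all. CCAAT was in 7 windows of 6 members (Acacb, Acly, Fasn, Me1, Mlxipl and Srebf1), against 37.4% of all windows, and GGGCGG in 5 windows of 4 members (Acly, Me1, Mlxipl and Srebf1), against 35.7%. The Fasn window, shown because it holds 3 CCAAT matches on the 2 strands, is chr11:120824498-120824797 (minus strand). The Mlxipl window, shown because it holds the TCACNCCAC match, is chr5:135106641-135106940 (plus strand). Capitals mark CCAAT or its reverse ATTGG in the first sequence, where a pair of matches overlap by 2 letters, and TCACNCCAC in the second; a match is a match of letters, and binding was not measured here.
Fasn promoter: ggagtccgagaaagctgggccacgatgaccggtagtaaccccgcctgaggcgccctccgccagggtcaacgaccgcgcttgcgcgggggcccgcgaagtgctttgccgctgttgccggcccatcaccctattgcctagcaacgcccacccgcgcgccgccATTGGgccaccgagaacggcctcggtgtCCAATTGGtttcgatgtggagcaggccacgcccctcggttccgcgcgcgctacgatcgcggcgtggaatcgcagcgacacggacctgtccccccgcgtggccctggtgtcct
Mlxipl promoter: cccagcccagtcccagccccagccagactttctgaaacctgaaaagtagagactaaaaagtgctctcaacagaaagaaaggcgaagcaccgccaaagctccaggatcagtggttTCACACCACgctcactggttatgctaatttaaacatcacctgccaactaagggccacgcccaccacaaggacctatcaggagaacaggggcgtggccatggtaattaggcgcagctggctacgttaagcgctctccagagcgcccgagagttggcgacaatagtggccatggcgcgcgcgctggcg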

How the data were processed

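RNA of 6 mouse kidneys was measured, 3 per group, and groups and replicate numbers come from the labels; the treatment field tells saline from atorvastatin, while the protocol field names atorvastatin for all. Per the labels, HISAT, Bowtie2 2.2.5 and the build mm9 were used; the counting tool and annotation are not given in the sources used here. The authors deposited expected counts (estimated reads, not normalized) and TPM (scaled to length and library) per gene and transcript, and FPKM per gene; 91.3% of the gene counts were whole. Expected counts were rounded and fitted over all genes, or all transcripts, that reached 10 counts in 3 or more libraries, by edgeR 4.0.16 in R 4.3.3 (TMM, quasi-likelihood F test); p-values were adjusted over the whole table. Called means a fold change over 1.5 and an adjusted p under 0.05. CPM are TMM-scaled. On the log2 scale a prior count of 2 was added, except in the deviations of the members and the lists from the Db mean. The fit was tested on simulated data, in which it missed most of the genes given a 2-fold change. A gene that was not called can thus still differ between the groups. Transcript shares were compared by exact two-sided permutation tests (scipy 1.17.1). Likeness used tested genes with a mean CPM of at least 10, members left out.

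Alternatives were DESeq2 1.42.0, upper-quartile normalization, no filter beyond 1 count, the replicate number as a block, limma 3.58.1 on log2(TPM + 1) and log2(FPKM + 1), and each library left out. No 2 libraries were alike beyond sampling noise. List symbols were matched directly or through RefSeq names of GRCm38.p6 (162 of 167 entries had a row). Text names all members, per pathway list the most abundant gene and up to 3 tested genes with the smallest p, per marker list the most abundant gene and markers at 0, and 5 like genes for each of Scd1, Fasn and Srebf1; Lpin1, Agpat3, Scd3, Scd4, Alb, Apoa2, Ttr and the adipocyte genes beside Fabp4 were named for their counts or calls after these were seen. A gene that the rule named is not reported here. The members, gene lists and named-gene rule were chosen with earlier results of these data known.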

Additional observations from a re-analysis of the deposited data

How the results depend on the processing

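No member was called under any of the 12 alternatives, and no Srebf1 transcript under any of the 9 run on transcripts. The count of all genes called moved from 0 to 884 with DESeq2, and of pathway genes from 0 to 2; for transcripts DESeq2 gave 889. Over the libraries left out in turn, the genes called ran from 0 to 1106 and the pathway genes from 0 to 6, the upper values being those without Db+Ato10 replicate 3; the cause was not tested. The median log2 fold change of the members stayed below 0, from -0.36 with limma on log2(TPM + 1) to -0.14 without Db replicate 3. Of 120 member values under the alternatives, 110 kept their sign and call and 10 changed sign, all of them without a call.

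Srebf1 changed sign with limma on log2(FPKM + 1), to 0.054. Leaving out each library gave ranges across 0 for Srebf1 (-0.27 to 0.49), Mlxipl (-0.27 to 0.31), Acly (-0.23 to 0.018), Me1 (-0.39 to 0.15) and Scd2 (-0.50 to 0.0091). Of the Srebf1 transcripts, XM_006532715.2 ran from -2.16 to 0.26 and XM_006532716.2 from -2.59 to 1.69. The upper values were those without Db replicate 3. XM_006532714.3 ran from 2.93 to 9.43. Its upper value, without Db replicate 2, rests on Db libraries at 0 and so on how the fit treats a count of 0. The cause of the sign changes was not tested.

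With the replicate number as a block (replicate block), 0 genes, 0 members and 0 transcripts were called, Srebf1 came to 0.056, XM_006532716.2 to 0.38, XM_006532715.2 to -0.13 and XM_006532714.3 to 5.45, the last at an unadjusted p under 0.05 (4.93% of all transcripts in that fit) and an adjusted p of 0.797. It and XM_006532715.2 also stood under 0.05 unadjusted without Db replicate 2 (7.14% of all). The adjusted p of XM_006532714.3 over all alternatives ran from 0.44 to 0.938. Same-numbered libraries deviated together with correlations of -0.15, 0.061 and 0.21, and differently numbered ones with -0.37 to 0.31. Such values from 3 libraries per group cannot settle whether the numbers mark a pairing.

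With 3 libraries per group, whose totals were 11381678 to 14667909 counts, exact permutation tests could not go below 0.1. The members had from 280 counts (Acaca in Db replicate 2) to 4163 (Me1 in Db+Ato10 replicate 2) in a library.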
